A study of Mus musculus with 4 samples.

Results

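The 10 genes described here code for proteins that make, move and buffer the high-energy phosphate of the heart: the creatine kinases Ckm, Ckmt2 and Ckb, the adenylate kinases Ak1 and Ak3, the mitochondrial carriers Slc25a3, Slc25a4 and Slc25a5, the outer membrane channel Vdac1 and the creatine transporter Slc6a8. They were taken by gene symbol and are 10 of the 32285 genes in the count tables. The tissue was left ventricle of male wild-type C57BL/6J mice, and the 4 groups had 1 library each: young sham and young ischemia/reperfusion (I/R) from mice of 3 to 5 months, and aged sham and aged I/R from mice of 24 to 26 months. In both I/R groups surgery on the left anterior descending artery gave 45 min of ischemia followed by 24 h of reperfusion. The sham samples carry that name in their titles, while their treatment label describes healthy mice with no alteration. How many mice went into a library is not given, so a difference between 2 libraries cannot be told apart from a difference between animals or preparations, and no test between conditions was possible.

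In heart muscle, ATP made by the ATP synthase in the mitochondrial matrix leaves through the adenine nucleotide translocases, of which Slc25a4 codes for the form typical of heart and skeletal muscle and Slc25a5 for a form found in most tissues. Mitochondrial creatine kinase, coded by Ckmt2, passes the phosphate to creatine in the space between the mitochondrial membranes, and the muscle enzyme coded by Ckm turns phosphocreatine back into ATP beside the myofibrils and ion pumps. Creatine itself is taken up from the blood by the transporter that Slc6a8 codes for, and adenylate kinases interconvert ATP, ADP and AMP.

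Each library was made with a droplet kit that tags transcripts near their 3′ end, and a value counts unique molecular identifiers (UMIs), each of which stands for 1 captured transcript. Levels are given as CPM, the UMIs of a gene per 1000000 UMIs of the library, over all barcodes. The levels of different genes were not ranked. The libraries held 91124 to 102883 barcodes, 25836175 to 66767829 UMIs and a median of 244 to 675 UMIs per barcode, with young sham the shallowest and aged I/R the deepest. None of the 18 cardiomyocyte markers was at 0 in any library. The 7 neutrophil markers summed to 14.2 and 23.5 CPM in young and aged sham and to 97.6 and 97.1 CPM in the I/R libraries, and 3 atrial markers to 78.7 to 230.03 CPM, highest in young I/R. Between 7.44% and 7.92% of a library's barcodes also occurred in another library. Where 4 values stand in a row they belong first to the young sham, then to the young I/R, then to the aged sham and last to the aged I/R library. A log2 ratio compares 2 libraries, each scaled by its total of UMIs. Scaling by the median of gene-wise ratios instead added 0.41 to every log2 ratio of I/R to sham in the young, −0.09 in the aged, 0.14 between the sham libraries and −0.36 between the I/R libraries. Intervals are 95% intervals, exact for levels and ratios and approximate for changes of a ratio, and cover counting error only, not the spread between animals.

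Gene positions below are those of the GRCm38 mouse assembly. Sequences are shown for the 5 genes on which the comparisons turn, the 3 creatine kinases and the translocase pair, as the 120 bases before the RefSeq start of each gene (assembly GRCm38.p6), since the data compare how much of their RNA was present. Capitals mark the letters TATAA, the core of a TATA box. The stretches are chr7:19410974-19411093 on the plus strand for Ckm, chr13:91876886-91877005 on the minus strand for Ckmt2, chr12:111672339-111672458 on the minus strand for Ckb, chr8:46211063-46211182 on the minus strand for Slc25a4 and chrX:36795477-36795596 on the plus strand for Slc25a5.
Ckm: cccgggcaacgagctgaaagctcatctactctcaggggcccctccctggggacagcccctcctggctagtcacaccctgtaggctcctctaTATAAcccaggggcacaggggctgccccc
Ckmt2: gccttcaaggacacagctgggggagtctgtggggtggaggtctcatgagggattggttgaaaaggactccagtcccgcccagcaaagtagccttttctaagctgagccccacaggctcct
Ckb: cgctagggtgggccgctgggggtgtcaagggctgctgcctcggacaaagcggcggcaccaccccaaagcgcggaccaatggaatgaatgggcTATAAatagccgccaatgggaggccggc
Slc25a4: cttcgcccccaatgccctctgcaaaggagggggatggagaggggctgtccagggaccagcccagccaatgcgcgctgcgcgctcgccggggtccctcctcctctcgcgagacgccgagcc
Slc25a5: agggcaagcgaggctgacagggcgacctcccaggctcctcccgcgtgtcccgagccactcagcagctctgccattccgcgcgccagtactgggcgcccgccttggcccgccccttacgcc

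The run TATAA began 29 bases before the start of Ckm and 28 bases before that of Ckb, while the stretch of Ckmt2 held none. In Slc25a4 and Slc25a5 the letters began 5 and 26 bases after the RefSeq start, outside the stretch printed. The GENCODE position of Slc25a5 starts later, at chrX:36795651, and the letters lie before that start. Whether they stand before or after the start of Slc25a5 thus depends on the annotation. RefSeq windows from 250 bases before to 50 bases after a start were found for 9 of the 10 genes (13 windows), and Slc6a8 was not matched. On either strand, TATAA was in 5 of these 13 windows and in 24.9% of all 32851 windows. CCAAT was in 3 windows (37.4% of all), GGGCGG in 6 (35.7%) and CANNTG in 12 (72.3%). AAGGTCA was in 2, those of Ak1 and Vdac1 (4.72%), and the MEF2 consensus in 2, those of Ak1 and Ckb (3.19%). In Ckb the MEF2 match overlapped the TATAA printed. In Ak1 both were in the same window, and their overlap was not checked. These are matches of letters, not sites shown to be bound.

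The muscle creatine kinase gene Ckm (ENSMUSG00000030399, chr7:19404776-19422841) stood at 1591 CPM in sham and 1707 after I/R in young hearts, and at 1482 and 1161 in aged hearts. Aged I/R was the lowest of the 4 and young I/R the highest, and no interval overlapped another. In barcodes with under 200 genes young sham was slightly above young I/R, at 1704 against 1692 CPM. These were most of the barcodes of young sham, where 28.4% had 200 genes or more. In barcodes with at least 200 genes the values were 1448 and 1714 CPM. The log2 ratio to sham was 0.10 after I/R in the young (interval 0.08 to 0.12) and −0.35 in the aged (−0.37 to −0.34), so that the sign was opposite at the 2 ages. Between the I/R libraries the aged value was lower by a log2 ratio of −0.56 (−0.57 to −0.54), or 0.680 of the young level. The 9 markers of fast skeletal muscle, which also uses Ckm, summed to 4.37 to 7.40 CPM in the 4 libraries.

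Its mitochondrial partner Ckmt2 (ENSMUSG00000021622, chr13:91853387-91876885) stood at 1325 CPM in sham and 1332 after I/R in young hearts, and at 1004 and 936 in aged hearts. Both aged libraries were below both young ones. The log2 ratio of aged over young was −0.40 in sham (−0.42 to −0.38) and −0.51 in I/R (−0.53 to −0.49). Against sham, I/R gave a log2 ratio of 0.01 in the young, whose interval included 0, and of −0.10 in the aged.

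The brain-type creatine kinase gene Ckb (ENSMUSG00000001270, chr12:111669361-111672338), which many cell types other than muscle also use, stood at 60.7 CPM in sham and 42.3 after I/R in young hearts, and at 83.8 and 40.96 in aged hearts. Both I/R libraries were below both sham libraries, and scaled by totals they had a log2 ratio of −0.05 to each other (−0.14 to 0.04), which was −0.40 with gene-wise scaling (−0.49 to −0.31). Against sham, the log2 ratio of I/R was −0.52 in young mice (−0.62 to −0.42) and −1.03 in aged mice (−1.11 to −0.96), the latter 0.489 of the sham level and the lowest log2 ratio of any of the 10 genes in the 4 comparisons. With gene-wise scaling the young value was −0.12 (−0.22 to −0.02), and it stood at the 45.6th percentile of all genes. In the sham libraries the aged value was 1.38 times the young one.

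The summed level of 17 fibroblast markers moved beside Ckb in part, at 1674, 1321, 2329.85 and 1739.73 CPM. Of these 17 genes, 1 was higher after I/R than in sham in the young and 3 in the aged, and between the sham libraries 12 were higher with age, with no marker at 0 in any library. Fibroblasts were not alone in this. The 21 macrophage markers summed to 511, 389, 750 and 674 CPM, the 18 endothelial markers to 2132, 1922, 2284 and 2146. The 11 markers of mural cells, those of vessel walls, summed to 841, 616, 851 and 823. Neutrophil markers were higher after I/R. In the young the log2 ratio of the fibroblast sum was −0.34, above the median of −0.44 over all genes. The part of any of these cell types in the Ckb values was not tested. In UMIs summed over a whole library, fewer cells of a type and less RNA per cell cannot be told apart.

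**Figure D1:**
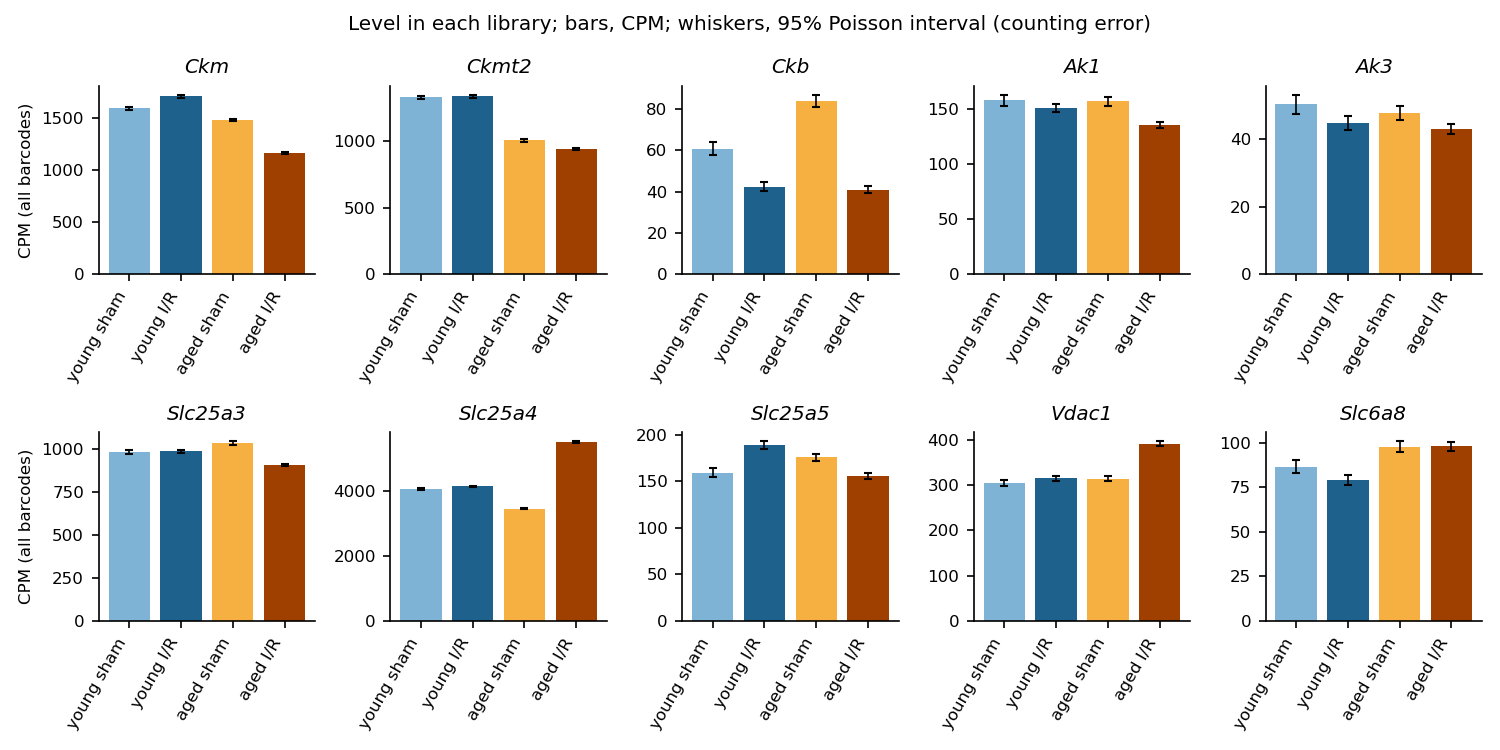
Level of each of the 10 genes in the 4 libraries, in CPM over all barcodes on a linear axis from 0, with 1 bar per library and whiskers for the 95% Poisson interval of counting error. Slc25a4 was highest in aged I/R at 5493 CPM, Ckb was at 42.3 and 40.96 CPM in the I/R libraries, and Ckmt2 was at 1004 and 936 CPM in the aged libraries against 1325 and 1332 in the young ones.

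Of the adenylate kinases, Ak1 (ENSMUSG00000026817, chr2:32621758-32635058), the cytosolic form, stood at 158, 151, 157 and 136 CPM. Aged I/R was the lowest, with a log2 ratio to aged sham of −0.21 (−0.26 to −0.16). Ak3 (ENSMUSG00000024782, chr19:29020833-29047961), the form of the mitochondrial matrix that uses GTP, stood at 50.4, 44.9, 47.8 and 43.0 CPM. Both I/R libraries were below both sham libraries, though the intervals of young I/R and aged sham overlapped, and the log2 ratios were −0.17 in young and −0.15 in aged mice. The young value was 0.24 with gene-wise scaling (0.13 to 0.34) and −0.03 with only barcodes of at least 200 genes, so that its direction is not settled. Ak3 overlaps Cdc37l1 on the opposite strand, which was counted at 226, 101, 108 and 209.5 CPM, and because the sources used here do not state whether strand was used, the small Ak3 differences are uncertain.

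Among the carriers, the heart-type adenine nucleotide translocase gene Slc25a4 (ENSMUSG00000031633, chr8:46206797-46211284) stood at 4050.25 CPM in sham and 4134 after I/R in young hearts, and at 3444 and 5493 in aged hearts. Aged I/R was the highest and aged sham the lowest. The log2 ratio to sham was 0.03 in young (0.02 to 0.04) and 0.67 in aged hearts (0.66 to 0.68), the latter a 1.60-fold higher level. With gene-wise scaling these were 0.43 (0.42 to 0.45) and 0.58 (0.57 to 0.59). The difference between ages (aged minus young) thus went from 0.64 to 0.15. In barcodes with under 200 genes young sham was above young I/R, at 4363 against 4125 CPM. The 18 cardiomyocyte markers summed to 101701, 89247, 95354 and 110139 CPM, and in the aged 7 of the 18 were higher after I/R than in sham. Without the sarcomere gene Ttn their sum was 69957, 70632, 77313 and 75700.2 CPM, lower after I/R than in sham in the aged. There 6 of the 17 were higher after I/R. One of these, the myosin gene Myh6, rose from 13165 to 22388 CPM and is a large part of that sum. Slc25a5 (ENSMUSG00000016319, chrX:36795651-36798807), the form of most tissues, stood at 159, 189, 176 and 155 CPM, highest in young I/R, and lower in aged I/R and young sham, which were close to each other. Its log2 ratio was 0.24 in young mice (0.19 to 0.30) and −0.18 in aged mice (−0.22 to −0.13).

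The phosphate carrier gene Slc25a3 (ENSMUSG00000061904, chr10:91116574-91124059), whose product brings in the phosphate that ATP synthase uses, stood at 981, 985, 1033 and 905 CPM. Against sham its log2 ratio was 0.01 in the young, with an interval that included 0, and −0.19 in the aged. Vdac1 (ENSMUSG00000020402, chr11:52360860-52389397), a pore of the outer mitochondrial membrane that passes ATP, ADP and other small molecules, stood at 304, 314, 314 and 391 CPM. Scaled by totals, aged I/R was the highest, as for Slc25a4, with a log2 ratio to aged sham of 0.32 (0.29 to 0.35). In the young the log2 ratio of I/R to sham was 0.05. Gene-wise scaling made these 0.23 in the aged and 0.45 in the young, so that the larger was then in the young. With gene-wise scaling the log2 ratio of the aged to the young I/R library went from 0.32 to −0.04 for Vdac1, which turned its order, and from 0.41 to 0.05 for Slc25a4. The creatine transporter gene Slc6a8 (ENSMUSG00000019558, chrX:73673150-73682502) stood at 86.5, 78.8, 97.7 and 97.9 CPM, with a log2 ratio to sham of −0.13 in the young and of 0.0036 in the aged (−0.05 to 0.06). Gene-wise scaling turned both, to 0.27 (0.19 to 0.35) and −0.09 (−0.14 to −0.03).

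Set against all genes, the 10 lay mostly above the middle in the I/R comparison of young hearts and mostly below it in that of aged hearts. The sum of 17 cardiomyocyte markers without Ttn lay on the same sides. Its log2 ratios were 0.01 and −0.03, where the medians over all genes were −0.44 and 0.09. The position is therefore not read as particular to the 10 genes. A gene was counted as past the limit at 1.5-fold, provided that both libraries together held 100 or more of its UMIs. Between young I/R and young sham 0 of the 10 genes were past it, where 5.35% of 12465 genes were higher and 41.9% lower. The median log2 ratio was 0.01 over the 10 genes and −0.44 over all genes, and 9 of the 10 lay above that median, Ckb being the exception. Ckm stood at the 80.7th percentile of all genes and Slc25a5 at the 86.9th. The transcript Gm42418 took 19.4% of the UMIs of young I/R and 11.5% of those of young sham, and Malat1 took 2.22% and 7.34%. The 13 genes of mitochondrial DNA took 14.1% and 10.0%. When libraries were instead scaled by the median of gene-wise ratios, every log2 ratio of this comparison rose by 0.41, which put Slc25a5 past the limit at 0.65 and left Ckm inside it at 0.51, where 16.0% of all genes were then higher and 22.5% lower.

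Between aged I/R and aged sham 2 of the 10 genes were past 1.5-fold, Slc25a4 higher and Ckb lower, where 14.4% of 13722 genes were higher and 7.43% lower. The median was −0.16 over the 10 genes and 0.09 over all genes, and 2 of the 10, Slc25a4 and Vdac1, lay above the latter. Gene-wise scaling lowered each value by 0.09, which left Slc25a4 at 0.58, just inside the limit, and Ckb at −1.12, with 11.0% of all genes then higher and 10.4% lower. Ckb was at the 1.34th percentile of all genes and Slc25a4 at the 88.9th.

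With age, 0 of the 10 genes were past 1.5-fold between the sham libraries, where 6.12% of 12901 genes were higher and 16.9% lower. The median was 0.02 over the 10 genes and −0.14 over all genes. Ckb at 0.46 and Ckmt2 at −0.40 were the extremes, and gene-wise scaling, which added 0.14, took Ckb past the limit at 0.61, with 10.0% of all genes then higher and 10.6% lower. Between the I/R libraries 0 of the 10 were past it as well, where 39.3% of 13434 genes were higher in aged I/R and 3.29% lower. The median was −0.09 over the 10 genes and 0.43 over all genes, and all 10 lay below the latter, Ckm at percentile 3.64 and Ckmt2 at percentile 4.33. Gene-wise scaling lowered the values by 0.36 and put Ckm (−0.91), Ckmt2 (−0.86) and Slc25a5 (−0.63) past the limit, where 19.1% of all genes were then higher and 11.4% lower. The 4 comparisons share libraries, so their values are set side by side and were not counted as separate support.

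**Figure D2:**
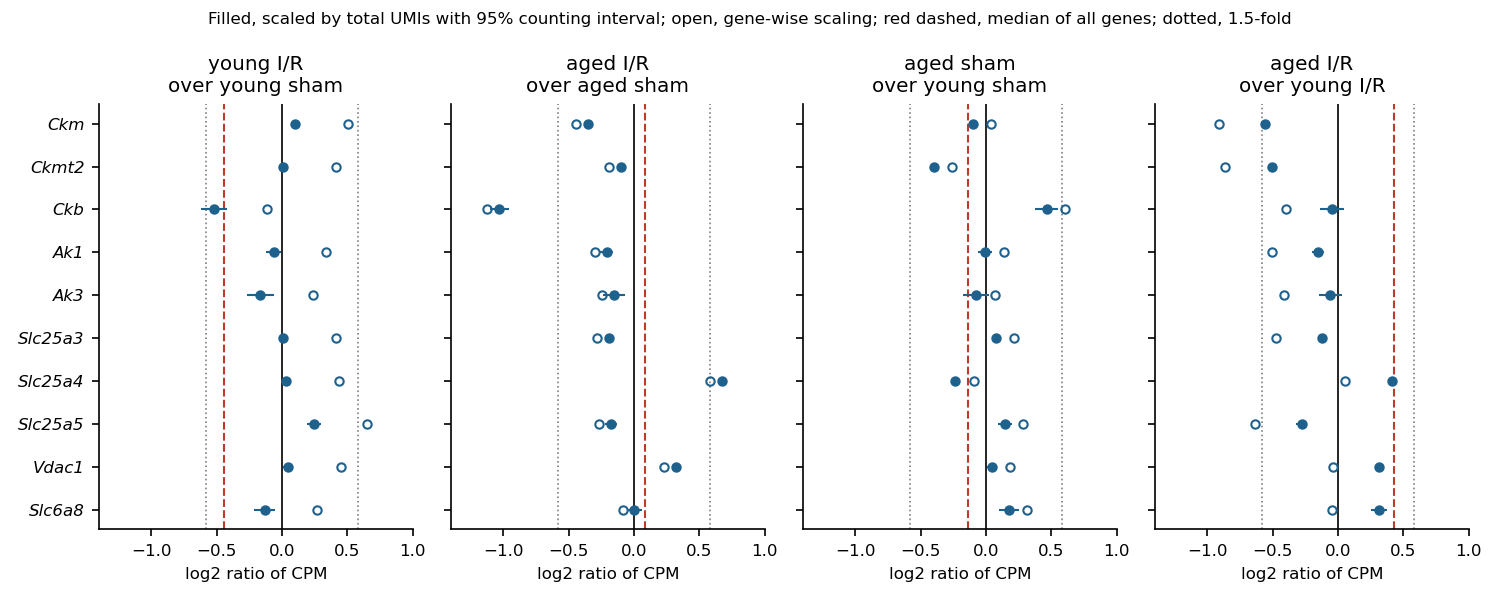
Log2 ratio of CPM of each gene in the 4 comparisons, with filled points for scaling by total UMIs (bars, exact 95% counting interval), open points for gene-wise scaling, a red dashed line at the median of all genes and dotted lines at 1.5-fold. In young I/R over young sham all filled points but that of Ckb lie right of the dashed line, and in aged I/R over young I/R all lie left of it.

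Ratios of 2 genes within a library do not depend on how libraries are scaled, and 7 pairs were compared. Such a ratio is read here only for how it differs between libraries. The ratio of Slc25a4 to Slc25a5 UMIs was 25.5 in sham and 21.9 after I/R in the young, and 19.6 and 35.3 in the aged. It was lowest in aged sham and highest in aged I/R, with a log2 change of 0.85 from sham to I/R in aged mice (0.81 to 0.89) against −0.22 in young mice (−0.27 to −0.16). The 2 changes had opposite signs and differed by 1.07, which with 1 library per group was not tested.

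The ratio of Ckm to Ckb was 26.2 in sham and 40.3 after I/R in the young, and 17.7 and 28.3 in the aged. Here I/R was above sham at both ages, with a log2 change of 0.62 in young mice (0.52 to 0.72) and 0.68 in aged mice (0.61 to 0.75), with intervals that overlapped. Aged was below young in sham (−0.57) and in I/R (−0.51). For Ckm to Ckmt2, the pair at the 2 ends of the phosphocreatine circuit, the ratios were 1.20, 1.28, 1.48 and 1.24, again with opposite signs of the I/R change (0.09 in young and −0.25 in aged mice).

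Relative to the translocase Slc25a4, Ckmt2, Slc25a3 and Vdac1 were all lower in aged I/R. These ratios share Slc25a4, itself 1.60-fold higher in aged I/R than in aged sham, so their falls are not separate observations. By their own levels in the same comparison, Ckmt2 and Slc25a3 had log2 ratios of −0.10 and −0.19, and Vdac1 was higher, at 0.32. The ratio of Ckmt2 to Slc25a4 was 0.327, 0.322, 0.291 and 0.170, and that of Slc25a3 to Slc25a4 was 0.242, 0.238, 0.300 and 0.165. From sham to I/R in aged mice the log2 changes were −0.77 and −0.86, and that of Vdac1 to Slc25a4 was −0.36, while in young mice the intervals of all 3 changes included 0 over all barcodes. With only barcodes of at least 200 genes the young changes were −0.15 for Slc25a3 to Slc25a4 (−0.18 to −0.11) and −0.04 for Ckmt2 to Slc25a4 (−0.07 to −0.01). The ratio of Ak1 to Ak3 lay between 3.13 and 3.36 in the 4 libraries, and the interval of its change included 0 in each comparison, from −0.19 at the lowest to 0.22 at the highest.

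**Figure D3:**
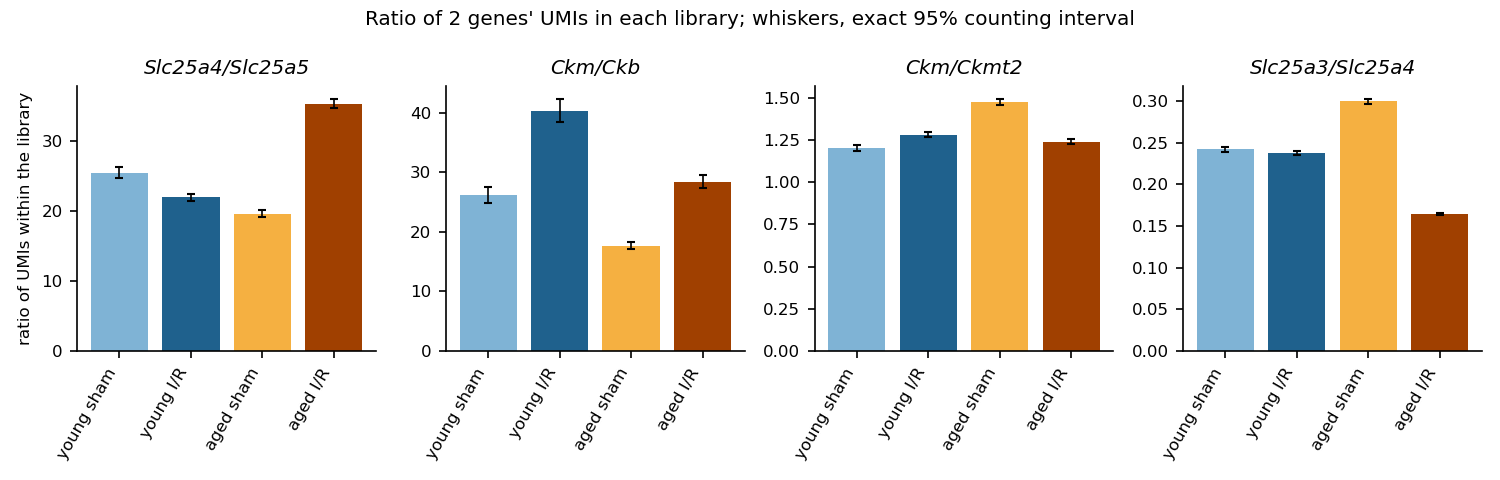
Ratio of the UMIs of 2 genes within each library for 4 of the 7 pairs, on linear axes from 0, with exact 95% counting intervals as whiskers. Aged I/R has the highest Slc25a4 to Slc25a5 ratio (35.3) and the lowest Slc25a3 to Slc25a4 ratio (0.165).

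The wider pathway was read from 3 lists. ATP synthase, the enzyme that makes the ATP these proteins carry, had 18 listed genes in the table. Their median log2 ratio, I/R against sham, was 0.20 in young mice, with 17 of 18 above 0. None was past 1.5-fold there, where 5.35% of all genes were higher and 41.9% lower. In aged mice the median was −0.46, with 2 of 18 above 0. There 3 were past 1.5-fold lower, against 7.43% of all genes. Between the I/R libraries the median was −0.45, with 4 past 1.5-fold lower, against 3.29% of all genes. Between the sham libraries the median was 0.22, with none past it, where 6.12% of all genes were higher and 16.9% lower. The signs of these medians held under both other scalings, but the counts did not: with gene-wise scaling 10 of the 18 were past 1.5-fold higher after I/R in the young, 7 lower after I/R in the aged and 12 lower between the I/R libraries, where 16.0%, 10.4% and 11.4% of all genes were past it in those directions. The medians of the 10 genes and of the ATP synthase list were both above that of all genes for I/R in the young, and both below it for I/R in the aged.

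Of 7 genes for proteins that spend ATP, 1 was past 1.5-fold lower after I/R in the young, where 41.9% of all genes were lower. With gene-wise scaling 3 were higher and 0 lower there, against 16.0% and 22.5% of all genes. After I/R in the aged 1 was past 1.5-fold higher, where 14.4% of all genes were higher. That gene was Myh6, the main myosin motor of the adult mouse heart, at 15323, 13675, 13165 and 22388 CPM. It was highest in the same library as Slc25a4, with a log2 ratio of 0.77. Atp2a2, the calcium pump of the sarcoplasmic reticulum, had a log2 ratio of −0.50 in the same comparison and 0.20 in young mice. The medians of these 7 genes changed sign with the scaling in 3 of the 4 comparisons, so no direction is given for them.

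Of 30 other phosphotransfer and nucleotide carrier genes, 21 had enough UMIs in each comparison, and 10 of those at 20 CPM or more in any library are named here. Between young I/R and young sham 2 of the 21 were past 1.5-fold higher and 6 lower, where 5.35% of all genes were higher and 41.9% lower. With gene-wise scaling 4 were past it each way, against 16.0% and 22.5% of all genes. Those higher were Nme1, a nucleoside diphosphate kinase, at 27.7, 59.96, 36.1 and 34.6 CPM, and Ampd3, an AMP deaminase, at 24.97, 38.3, 21.7 and 32.4. Ampd3 was higher in I/R at both ages, with log2 ratios of 0.62 and 0.58, the aged one just under the limit. The coenzyme A carrier Slc25a42 (34.7, 9.15, 13.3 and 13.6 CPM) and the ATP-Mg/phosphate carrier Slc25a23 (63.3, 26.0, 32.9 and 41.4 CPM) were highest in young sham.

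Nme7, a family member of cilia and centrosomes, stood at 29.7, 17.0, 20.8 and 29.4 CPM, with a log2 ratio to sham of −0.81 in the young and 0.50 in the aged. The sister channels of Vdac1 did not share its pattern: Vdac2 stood at 208, 271, 257 and 227 CPM and Vdac3 at 187, 208, 255 and 166 CPM. Against sham, both had positive log2 ratios in young mice (0.38 and 0.16) and negative ones in aged mice (−0.18 and −0.62), where that of Vdac1 was 0.32. Nme2 stood at 436, 569, 562 and 449 CPM, with the same pair of signs (0.38 and −0.32). Adk, adenosine kinase (117, 87.7, 83.7 and 107 CPM), had a log2 ratio of 0.35 in the aged and of −0.41 in the young, the size of what gene-wise scaling adds there. Ppif, cyclophilin D of the permeability transition pore, stood at 63.9, 44.6, 47.5 and 44.5 CPM, highest in young sham.

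Between aged I/R and aged sham 1 of the 21 genes was past 1.5-fold higher and 3 lower, between the sham libraries 0 were higher and 2 lower, and between the I/R libraries 5 were higher and 1 lower. Over all genes the shares were 14.4% and 7.43%, 6.12% and 16.9%, and 39.3% and 3.29%. Gene-wise scaling turned the last count round, to 1 higher and 6 lower, against 19.1% and 11.4% of all genes, and moved the median of that comparison from 0.17 to −0.18.

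Whether the 10 genes marked any cell type was checked by clustering the 241086 barcodes with at least 200 detected genes, without the 10 genes themselves. That limit kept 28.4%, 55.2%, 67.9% and 98.8% of the barcodes of the 4 libraries. Cluster values thus cover a smaller and deeper part of young sham and nearly all of aged I/R. Of 11 clusters, 1 each were called endothelial-like, macrophage-like and atrial-like and 2 erythroid-like, from hand-written marker lists, and 6 stayed unnamed. In the endothelial-like cluster 4 of 18 listed markers stood out, in the macrophage-like 7 of 21 and in the atrial-like 3 of 3. In the erythroid-like clusters 3 of 6 and 6 of 6 did so. Most listed endothelial and macrophage markers thus did not stand out in the clusters named for them. No cluster took the name of cardiomyocytes, for which at least 3 markers had to stand out, and 2 of 18 did so in the cluster led by Mhrt. Cluster 4, led by Hmcn2, Meg3 and Medag, had 13 of 17 fibroblast markers standing out but none among its 10 leading genes, and stayed unnamed. Barcodes named for cells that should hold little Ckm had about as much as the rest. Macrophage-like barcodes stood at 1456, 1727, 1418 and 1136 CPM, and erythroid-like barcodes at 1611, 1699.6, 1501 and 1175. Relative to all barcodes with 200 genes, the level in these 2 classes was 0.975 to 1.11 for Ckm, 0.993 to 1.11 for Slc25a4 and 0.972 to 1.11 for Ckmt2. Levels within a class are therefore not read as expression by that cell type.

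Over the 11 clusters the highest level of a member was 1.18 to 2.80 times the lowest, in 40 gene and library combinations. Ttn, the giant sarcomere protein, ranged 1.83-fold to 2.58-fold, inside the members' range, and Cd74, an antigen presentation gene, 2.78-fold to 19.96-fold. Unlike the members, which were left out of the clustering, such genes could enter it. The lowest level lay in cluster 5, led by Mhrt, Coro6 and Dmd, in 33 of the 40, and the highest in cluster 6, led by Timm10, Mrpl53 and Dnlz, in 28. The cluster led by Mhrt, an antisense nuclear RNA of the myosin locus, held 18.2% of the clustered barcodes of young sham and 6.90% to 8.25% of those of the others. In single barcodes the variance of a member's UMIs was 0.993 to 1.19 times that expected from depth alone, against 2.54 to 4.82 for Ttn, 12.7 to 22.1 for the globin gene Hbb-bs and 1.02 for Cd74. A value near 1 therefore does not show that a gene was even over barcodes. Pairs of members met in the same barcode 0.920 to 1.01 times as often as depth alone would give.

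The direction of the library was found in 11 of 11 clusters for 7 of the 10 genes after I/R in the aged and for 2, Ckb and Slc25a5, after I/R in the young. The share of all genes that did so was not computed, so these counts are not read as particular to the 10 genes. Slc25a4 lay between 4415 and 6299 CPM in the clusters of aged I/R and between 2777 and 3773 in those of aged sham, which did not overlap, and its log2 ratio was 0.65 to 0.74. Ckb was lower after I/R than in sham in 11 of 11 clusters in the aged, by log2 ratios of −1.37 to −0.80, and in 11 of 11 in the young, although in only 2 of these did the intervals lie apart. Ckm was also lower after I/R in the aged in 11 of 11 clusters, each with intervals apart. Its ranges over the clusters of aged I/R and aged sham did overlap, at 910 to 1401 and 1191 to 1650 CPM. Between young I/R and young sham it was higher in 9 of 11, from −0.10 to 0.65, the latter in the cluster led by Mhrt. Ak3 was higher in 7 of 11 clusters after I/R in the young and in 7 of 11 with age in sham, where its library log2 ratios were −0.17 and −0.08. Clusters of 1 library share its preparation and are not replicates.

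Depth per barcode also differed between libraries. Each library was cut into 4 equal groups by UMIs per barcode, at its own quartiles. The groups show how a level varied with depth inside a library. They were not matched in depth between libraries, so they cannot address the difference in depth between libraries. Slc25a4 stood at 5189 to 5718 CPM in those groups of aged I/R and at 3255 to 3619 in those of aged sham. Ckb stood at 39.9 to 42.1 CPM in those of aged I/R, 40.7 to 47.4 in young I/R, 51.3 to 70.2 in young sham and 81.1 to 90.2 in aged sham. For both genes the aged I/R and aged sham ranges did not overlap. Ckm ranged more widely with depth in young sham, from 1409.9 to 1757 CPM, than in young I/R, from 1657 to 1743, and there the 2 ranges overlapped. In young sham the 3 shallower groups stood at 1697 to 1757 CPM and the deepest at 1409.9.

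**Figure D4:**
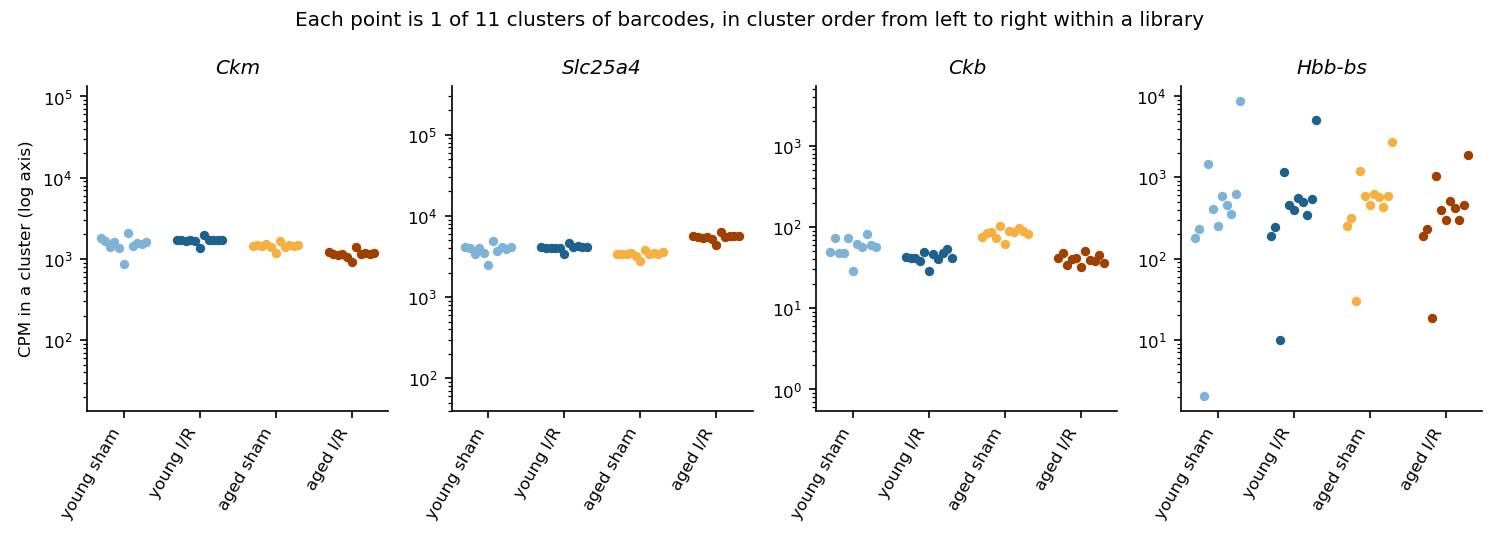
CPM of Ckm, Slc25a4, Ckb and the globin gene Hbb-bs in each of 11 clusters of barcodes (points, in cluster order within a library) on log axes that all span the same ratio. Slc25a4 lies at 4415 to 6299 CPM in aged I/R and at 2777 to 3773 in aged sham, which do not overlap. Ckm ranges do overlap between libraries, at 875 to 2068 CPM in young sham, 1374 to 1967 in young I/R, 1191 to 1650 in aged sham and 910 to 1401 in aged I/R. So do those of Ckb in the sham libraries, at 29.0 to 81.1 CPM in the young and 61.3 to 104 in the aged. Hbb-bs, a marker that could enter the clustering as the members could not, spreads over 92.0-fold or more within each library.

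Over the 44 sums of 11 clusters in 4 libraries, which share libraries and depth, Pearson's r of log2(CPM + 10) described which genes had the most similar pattern among 10541 genes. For Ckm these were Atp5k (r = 0.98) and Atp5md (0.96) of the ATP synthase and Cox8b (0.97) of cytochrome oxidase. Slc25a4 was most like Hsp90ab1 (0.96), a chaperone, Rps2 (0.95), a ribosomal protein, and Nipsnap2 (0.95). Ckb was most like Ltbp4 (0.94), a matrix protein that binds latent TGF-beta, Cd81 (0.90) and Mtfp1 (0.89). Slc25a5 was most like Mdh2 (0.90), Psmb6 (0.89) and Uqcrc1 (0.88), a citric acid cycle enzyme, a proteasome subunit and a subunit of complex III. Among the members themselves, r was 0.89 between Ckm and Ckmt2 and 0.87 between Slc25a4 and Vdac1, but −0.12 between Ckm and Slc25a4 and −0.43 between Ckb and Slc25a4.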

How the data were processed

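The 10 genes and the gene lists were chosen with earlier results of these data known. The counts were deposited by the authors as unscaled matrices of UMIs, filtered by their software. Per the labels, the tool was Cell Ranger 6.0.2 and the build mm10, and the molecule label reads nuclear RNA where the study describes single cells. Whether strand was used in counting is not given in the sources used here.

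UMIs were summed over all barcodes of a library and divided by the library total. Ratios of 2 libraries carry exact conditional binomial intervals, levels exact Poisson intervals, and changes of a pair's ratio delta-method intervals, all at 95%. The intervals of ratios and of changes of a pair's ratio were tested on simulated Poisson counts, those of levels were not. Such counts hold counting error only, as the intervals assume. No p-value was computed, since each group had 1 library. Genes were compared where 2 libraries together held at least 100 UMIs. Gene coordinates and overlaps are from the GENCODE annotation of GRCm38, promoter sequences from RefSeq.

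Barcodes in which 200 or more genes were seen were brought to 10000 UMIs and clustered in scanpy 1.11.5. Of 2000 variable genes 1999 were used, the rest being left out as a member, so most of the 10 were not among the variable genes. Each library was scaled by itself, with 10 principal components, 20 neighbours and Leiden resolution 1. A cluster took a name where at least 3 listed markers stood out, more than of any other class, with at least 1 of them, and no fewer than of any other class, among its 10 leading genes. Doublets were not removed and no caller was run. The 10 genes were all named, other phosphotransfer genes from 20 CPM in any library (1 of them is not reported here), ATP synthase and ATP use genes by counts with examples chosen after their values were seen, and the 3 most similar genes for Ckm, Ckb, Slc25a4 and Slc25a5. Alternatives were another scaling, other totals, barcode subsets, a fold of 2, a minimum of 20 UMIs and Leiden resolution 2. Metabolites, proteins and respiration were not analysed here.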

Additional observations from a re-analysis of the deposited data

Results flagged for a closer look

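In 4 results the difference between I/R and sham had opposite signs in young and aged mice, each beyond its counting interval and, for single genes, under both scalings. With 1 library per group none of these differences was tested. How large a share of all genes had opposite signs in young and aged mice was not computed. The count of 4 therefore has no background and is not read as particular to these genes. Scaled by totals, the median log2 ratio of I/R to sham over all genes was itself −0.44 in young and 0.09 in aged mice. For Ckm the log2 ratio was 0.10 in young and −0.35 in aged mice, a difference (aged minus young) of −0.45, or −0.95 with gene-wise scaling. In barcodes with under 200 genes, however, Ckm stood at 1704 CPM in young sham and 1692 in young I/R, against the direction over all barcodes. Such barcodes were most of those of young sham, where 28.4% had 200 genes or more. For Slc25a5 it was 0.24 and −0.18, a difference of −0.42, or −0.92 with gene-wise scaling. The log2 change of the Slc25a4 to Slc25a5 ratio was −0.22 in young and 0.85 in aged mice, a difference of 1.07, and that of the Ckm to Ckmt2 ratio was 0.09 and −0.25, a difference of −0.35. These ratios contain Slc25a5 and Ckm, the single genes flagged above, so the 4 results are not separate observations.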

How the results depend on the processing

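With 1 library per condition and no animals named, what could be varied was the scaling and the barcodes. The number of the 10 genes past 1.5-fold was 0, 2, 0 and 0 for I/R in the young, I/R in the aged, age in sham and age in I/R, in that order. Over all genes the shares past it either way were 47.3%, 21.8%, 23.0% and 42.6%. Gene-wise scaling gave 1, 1, 1 and 3, and the total without Gm42418, Malat1 and mitochondrial genes gave 1 in the second and 2 in the last. Only barcodes with at least 200 genes gave 1 in the third, and a fold of 2 gave 1 in the second. The shares of all genes with gene-wise scaling are given above. For the reduced total, the barcode subset and the fold of 2 none was computed, so those counts have no background. With only barcodes of at least 200 genes the Slc25a4 to Slc25a5 change was −0.15 for I/R in the young and −0.32 for age in sham. At Leiden resolution 2 macrophage-like barcodes of young sham held 1527 CPM of Ckm. Leaving out barcodes found in more than 1 library moved the 40 log2 ratios by at most 0.02, and leaving out the 1% of barcodes with the most UMIs by at most 0.02. Gene-wise scaling moved them by up to 0.41 and changed the sign of 9, of which 6 had intervals apart from 0, none of them past 1.5-fold. A minimum of 20 UMIs moved the share of all genes past 1.5-fold from 47.3% to 52.5% for I/R in the young. The values in cardiomyocyte-like barcodes, and their alternatives, could not be given because no cluster took that name at either resolution or with genes scaled over all libraries. No paired analysis was possible because each group had 1 library and no result came from a test.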
